A study of Homo sapiens with 9 samples.

Results

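The array labelled let7a methylated (called the index array below) was compared with the negative control array, 2 of the 9 arrays of the series, to describe which transcripts differed after transfection of the oligonucleotide so labelled. Every array was hybridised with RNA from RKO, a human colorectal cancer cell line, in which DICER had been disrupted at exon 5, so the control cells carried the disruption too. Cells received double-stranded RNA oligonucleotides by lipofection, and RNA was collected after 48 h. The control cells received the negative control oligonucleotide. Oligonucleotides for miR-17, let7a, miR-21 or miR-200c, each in a native (unmethylated) and a methylated form, were given to the others. The native arrays of let7a and miR-17 are set beside each result because the label of the array described here is in doubt. The labels give neither the methylated base, nor the strand that carries it, nor whether the cells are 1 clone. Each group had 1 array, so no difference has a replicate check and no test was made. Differences are therefore given as values, and "lower" and "higher" describe these arrays only.

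DICER trims hairpin precursors to mature miRNAs, which an Argonaute protein then carries to messenger RNAs. A miRNA pairs mainly through its seed, near its 5′ end, and paired transcripts are repressed or degraded. The let-7 family is known for holding back growth genes such as HMGA2 and MYC, and its level is often low in tumours. The miR-17 family is known as a growth-promoting family, made from the miR-17-92 cluster and its relatives, that represses the cell cycle inhibitor CDKN1A.

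The mature sequences from RefSeq (GRCh38.p14) are shown because known targets of both families are described below, and relatives of miR-17 share its seed. Capitals mark the seed, bases 2 to 8 from the 5′ end.
hsa-let-7a-5p: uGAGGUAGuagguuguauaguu
hsa-miR-17-5p: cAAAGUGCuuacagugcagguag
hsa-miR-20a-5p: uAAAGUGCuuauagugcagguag
hsa-miR-93-5p: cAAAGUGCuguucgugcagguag
hsa-miR-106b-5p: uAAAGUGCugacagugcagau
The let-7a sequence is encoded at 3 loci, chr9:94175962-94175983 (+ strand), chr11:122146568-122146589 (- strand) and chr22:46112752-46112773 (+ strand), and miR-17-5p at chr13:91350618-91350640 (+ strand). The let-7a and miR-17 seeds hold the same base at 3 of 7 positions. Of 2370 mature miRNA names in the RefSeq table, 11 share the let-7a seed and 8 share the miR-17 seed. The oligonucleotide sequences that were transfected were not analysed here.

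On the index array 17716 of 24460 probes (72.43%) were brighter than the blank spots, and on the control 17115 (69.97%). The range over the 9 arrays was 16983 to 19118 probes. The median intensity of detected probes was 107.2 and 142.4 on these 2 arrays, the control being the brightest of the 9, and the blank spots averaged 33.1 and 46.84, also the highest on the control. Intensities were background corrected, quantile normalized and put on a log2 scale, which has no unit and cannot be set between genes. A feature is a gene represented by its brightest probe, or a probe without a gene name. Of 16069 features, 15434 were detected on both arrays, and 12902 of these had a gene symbol. Of the colorectal epithelial markers with a usable probe, EPCAM, KRT18, CDH1, VIL1 and CDX2 were detected on both arrays, and KRT19 was not. PTPRC of blood cells, COL1A1, COL3A1 and LUM of fibroblasts, and CDH5 of endothelium were detected on neither. CD3E, CD14 and LYZ of blood cells, DCN and PDGFRB of fibroblasts, and VWF and KDR of endothelium had a probe detected on both. Detected on both were thus 3 of 4 blood, 2 of 5 fibroblast and 2 of 3 endothelial markers with a probe, between 5.94 (CD3E) and 7.65 (DCN) on the control and 5.96 (VWF) and 7.70 (DCN) on the index array. The probe of DICER1 differed from the control by 0.01, and since its place relative to exon 5 was not analysed here, it does not check the disruption.

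The differences from the control leaned toward lower levels at the extremes. The log2 intensity was lower by at least 1, which is 2-fold, for 78 features (0.505% of those detected on both arrays) and higher by as much for 25 (0.162%). By at least 0.5, or 1.41-fold, 468 were lower (3.03%) and 308 higher (2.0%). Just past the 2-fold limit lay TMEM9B (-1.003) and LIMK1 (-1.001), and just short of it UXS1 (-0.999) and CALD1 (-0.993). Over all features the median difference was 0.01 and the SD 0.24. In bulk RNA, fewer cells of a kind and less RNA per cell cannot be told apart. The let7a native array had 37 features lower (0.239%) and 13 higher (0.0839%) than the control by at least 1, and the miR-17 native array 87 lower (0.561%) and 17 higher (0.11%). For scale, a methylated array differed from the native array of the same miRNA by at least 1 in 12 features (0.078%) for miR-200c and 16 (0.103%) for miR-21, but those pairs are not replicates.

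A feature was counted as shown by a native array when that array's own difference from the control had the same sign and at least 0.5 times the size. Of the 78 lower features, the miR-17 native array showed 74 and the let7a native array 12. Of the 78, 63 were shown by miR-17 native and not let7a native, 1 by let7a native and not miR-17 native, 11 by both and 3 by neither. Their median difference was -1.18, against -1.15 on miR-17 native and -0.16 on let7a native. Of the 25 higher features, miR-17 native showed 25 and let7a native 19, with medians of 1.11, 1.05 and 0.82. All 3 comparisons use the same control array, and its level alone can put a gene on every list. The control was the lowest of the 9 arrays for 17 of the 25 higher features and the highest for 25 of the 78 lower ones.

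The native arrays were therefore also set against the mean of the miR-200c native and miR-21 native arrays, which leaves the control out of that side of the comparison. Counted so, the miR-17 native array showed 57 of the 78 lower features and the let7a native array 7. Of the 25 higher features these counts were 9 and 5, and neither array showed 15. The median of the 78 lower features against this baseline was -0.91 on miR-17 native and 0.06 on let7a native. Among the other 7 miRNA arrays, the one nearest in level to the index array was miR-17 native for 61 of the 78 and let7a native for 1.

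Set against each other array directly, with no control between them, the index array lay closest to miR-17 native. The SD of the log2 difference over features was 0.157 from miR-17 native, 0.24 from both the control and miR-21 native, 0.254 from the array with the miR-17 methylated label and 0.263 from let7a native. It was 0.265 from miR-21 methylated, 0.302 from miR-200c methylated and 0.31 from miR-200c native. Features that differed by at least 1 numbered 19 from miR-17 native, 130 from let7a native and 103 from the control. These distances describe single arrays, and whether a label was exchanged was not tested.

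**Figure D1:**
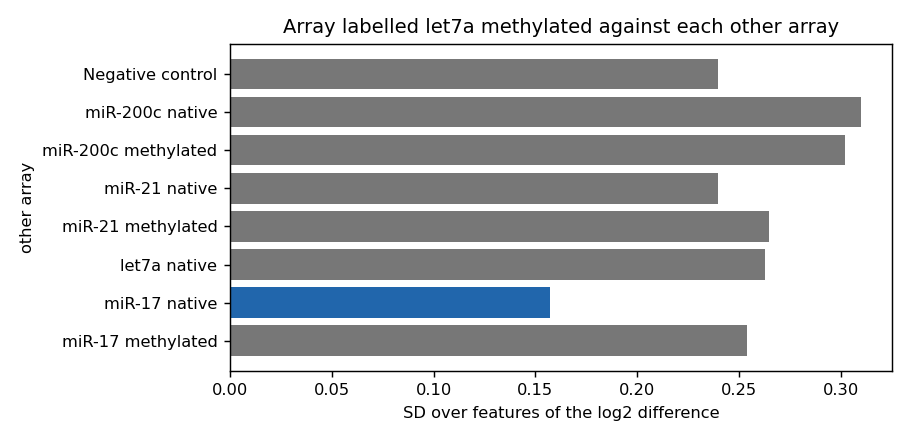
Bars give the SD, over features, of the log2 intensity difference between the array labelled let7a methylated (index array) and each of the 8 other arrays (1 array each). The bar of miR-17 native, in blue, is the shortest at 0.157, and the let7a native bar ends at 0.263.

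The 12 lowest named genes lay between -2.13 (BIRC3) and -1.39 (CERCAM). BIRC3, an inhibitor of apoptosis, was at a log2 intensity of 7.67 on the index array, 9.79 on the control, 7.93 on let7a native and 7.94 on miR-17 native. This was the lowest difference of any feature, -2.13 (4.36-fold lower), and both native arrays showed it, at -1.86 each. The control was the brightest of the 9 arrays for BIRC3, the other arrays lying between 7.75 and 8.81. STC1, the secreted glycoprotein stanniocalcin, was at 7.48, against 9.60 on the control, 8.10 on miR-17 native and 9.82 on let7a native. The remaining 5 arrays lay between 9.09 and 9.99, so STC1 was low on 2 arrays of 9. Its difference was -2.12 (4.35-fold), shown by miR-17 native (-1.50) and not by let7a native (0.22).

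Several others of the 12 were low on the same pair of arrays alone. M6PR, a receptor that carries lysosomal enzymes, was at 8.48 and on miR-17 native at 8.57, against 9.49 to 10.25 on the other 7. S100A11, a calcium-binding protein, was at 11.16 and 11.33 against 12.19 to 12.82, and its difference from the control was -1.65. PON2, a paraoxonase, was at 9.24 and 9.42 against 10.63 to 11.02. A second PON2 probe differed from the control by -1.55, close to the -1.63 of the first. ATP6V0E1, a subunit of the proton pump that acidifies vesicles, was at 11.22 and 11.17, against 12.32 to 12.79. COMMD6, a member of a family of NF-kappaB-binding proteins, was at 9.95 and 9.62 against 11.38 to 11.87, and its second probe differed by -1.51 from the control. CERCAM, a cell adhesion protein, was at 7.67 and 7.59, while let7a native and the array with the miR-17 methylated label followed at 8.36 and 8.48, and the other 5 lay between 9.07 and 9.40. Let7a native thus showed part of the CERCAM difference, -0.71 of -1.39.

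PLAU, the urokinase that activates plasminogen, and the transcriptional repressor BCL6 were low on the miR-200c arrays as well. PLAU was at 10.18 and on miR-17 native at 10.46, with 9.93 and 10.24 on the miR-200c arrays and 11.70 to 12.36 on the other 5. From the control it differed by -1.51 (second probe -1.12), by -1.23 on miR-17 native and by 0.45 on let7a native. BCL6 was at 6.81 and 6.97, with 6.76 and 7.11 on the miR-200c arrays and 7.65 to 8.28 elsewhere. Its difference was -1.48, against -1.32 on miR-17 native and -0.63 on let7a native. CDKN1A and CCND1, the other members of the 12, are described with the miR-17 targets.

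**Figure D2:**
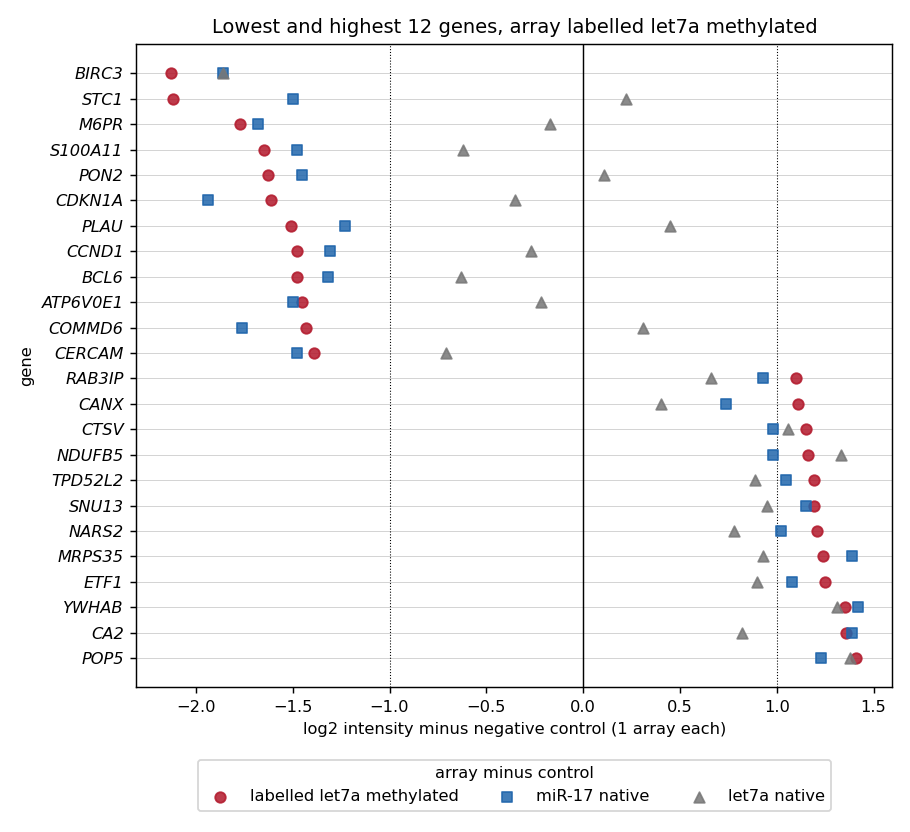
Points give the log2 intensity minus the negative control for the 12 lowest and 12 highest named genes of the array labelled let7a methylated, or index array (red circles), with the same difference on miR-17 native (blue squares) and let7a native (grey triangles), 1 array each. For lower genes the blue squares lie near the red circles, between -1.23 and -1.94, and the grey triangles reach from -1.86 (BIRC3) to 0.45 (PLAU), while for higher genes all 3 lie to the right of 0.

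The 12 highest named genes lay 1.10 (RAB3IP) to 1.41 (POP5) above the control, and the control was their dimmest array in most cases. POP5, a subunit of the RNA-processing enzymes RNase P and MRP, was at 10.15 against 8.74 on the control, and the other 7 arrays lay between 9.97 and 10.46. Its difference of 1.41 (2.65-fold) was thus one between the control and every other array, with 1.38 on let7a native and 1.23 on miR-17 native. The same held for SNU13, a protein of small nuclear and nucleolar RNA particles, at 11.95 against 10.76 and with 11.71 to 12.31 on the rest. Against the mean of all miR-200c and miR-21 arrays, native and methylated, both were lower in place of higher, POP5 at -0.08 and SNU13 at -0.12. The control was also the dimmest of the 9 for YWHAB, a 14-3-3 adaptor protein, ETF1, the factor that ends translation, MRPS35 of the mitochondrial ribosome, NARS2, which charges mitochondrial asparagine tRNA, TPD52L2 and NDUFB5 of respiratory complex I. These lay 1.16 (NDUFB5) to 1.35 (YWHAB) above the control. Second probes of MRPS35 and TPD52L2 gave 0.70 and 0.62 where the first gave 1.24 and 1.19.

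The remaining 4 of the 12 were brightest on the index array or on miR-17 native, as were YWHAB, ETF1, MRPS35, NARS2 and TPD52L2. CA2, a carbonic anhydrase, was at 8.58 and on miR-17 native at 8.61, against 7.21 on the control, 8.04 on let7a native and at most 7.94 on the other 5. The control was the dimmest array for CA2 too. CTSV, a lysosomal protease, was at 8.63, and let7a native, miR-17 native and the array with the miR-17 methylated label were at 8.54, 8.46 and 8.39, while the other 5 arrays lay between 7.23 and 7.56. Its difference of 1.15 was therefore seen with every let7a or miR-17 array. CANX, the chaperone calnexin, was at 12.36, miR-17 native at 11.99 and the other 7 between 11.06 and 11.75. RAB3IP, an activator of the trafficking protein RAB8, was at 11.43, followed by miR-17 native at 11.26, let7a native at 10.99 and the array with the miR-17 methylated label at 10.87. One probe without a gene name stood above all of these, 2.49 higher than the control.

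Known miR-17 targets were mostly lower. Of 41 measured members of the list, all detected on both arrays, 35 were lower than the control and 6 higher, where 47.9% of all features were lower (45.9% on miR-17 native and 49.8% on let7a native). By at least 1, 6 of the 41 were lower and 0 higher, against 0.505% and 0.162% of all features, and by at least 0.5, 12 were lower and 0 higher (3.03% and 2.0%). The median difference was -0.29, against 0.01 over all features. On miR-17 native it was -0.23 and on let7a native 0.04. Against the mean of all miR-200c and miR-21 arrays, native and methylated, the median on the index array was smaller, -0.09. Against the mean of the miR-200c native and miR-21 native arrays alone, a different baseline, it was -0.14 on miR-17 native and 0.06 on let7a native.

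CDKN1A, the p21 inhibitor of cyclin-dependent kinases, was at 9.81 on the index array and 9.48 on miR-17 native. The other 7 arrays lay between 11.07 and 11.53, the control at 11.42. Its difference of -1.61 (3.05-fold) was shown by miR-17 native (-1.94) and not by let7a native (-0.35). CCND1, the cyclin that drives G1 and a known target of both miRNA families, was at 9.66 and on miR-17 native at 9.83, against 11.13 on the control, 10.87 on let7a native and 10.44 to 11.56 on the other 5. MICA, a stress ligand seen by natural killer cells, was at 7.73 and 7.90 against 8.66 to 9.16 on the other 7, and BTG3, an antiproliferative factor, at 8.04 and 8.26 against 9.08 to 9.59. Each was 1.24 below the control on this array, and slightly above the control on let7a native (0.19 and 0.25). NAGK, a kinase of amino sugar salvage, was at 8.25 and 8.11, and the other 7 arrays reached from 9.32 to 9.86. SQSTM1, an autophagy receptor, was at 9.91 and 10.18, and the other 7 lay between 10.27 and 11.02.

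Not every known miR-17 target followed. The highest members were the transcription factor E2F3 and the pocket protein RBL1, each 0.26 above the control, and the kinase MAPK9 at 0.14. On miR-17 native they stood at 0.22, 0.24 and 0.20, and on let7a native at 0.22, 0.09 and 0.49. E2F1 differed by -0.09, the growth factor receptor TGFBR2 by -0.01 and the pocket protein RBL2 by -0.08 (its second probe by -0.33). BCL2L11, a killer of the BCL2 family, differed by 0.00 but was dim, at 6.12 on both arrays, so a lower level could be hidden by the background.

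Known let-7a targets were also lower as a list, but led by other members than on the let7a native array. Of 40 members 32 were measured and 31 detected on both arrays, of which 25 were lower and 6 higher than the control, where 47.9% of all features were lower. By at least 1, 2 were lower and 0 higher (0.505% and 0.162% of all features), and by at least 0.5, 6 were lower and 0 higher (3.03% and 2.0%). The median was -0.21, against -0.31 on let7a native and -0.15 on miR-17 native. Against the mean of all miR-200c and miR-21 arrays, native and methylated, the median was -0.04 on this array. Against the mean of the miR-200c native and miR-21 native arrays alone, a different baseline, it was -0.19 on let7a native and -0.01 on miR-17 native. Set directly against let7a native, 21 members were higher and 10 lower on the index array, with a median of 0.15, where 47.7% of all features were lower.

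The 2 members lower by at least 1 were CCND1, also a miR-17 target, and SLC20A1, a phosphate transporter. SLC20A1 was at 10.03, with 11.12 on the control, 10.18 on let7a native and 10.01 on miR-17 native. Both native arrays showed its difference of -1.09 (second probe -1.17), but so did the miR-200c arrays, at 10.13 and 10.05. HMGA2, a chromatin protein and a classic let-7 target, was at 9.13, the lowest of the 9 arrays, against 9.93 on the control, 9.31 on let7a native and 9.65 on miR-17 native. Its difference of -0.80 was shown by let7a native (-0.62) and not by miR-17 native (-0.28), and the array with the miR-17 methylated label was at -0.67. BACH1, a transcription factor on both target lists, differed by -0.62, with -0.51 on let7a native and -0.48 on miR-17 native. RRM2, a subunit of ribonucleotide reductase, differed by -0.60 by 1 probe and by 0.05 by another. MYC differed by -0.23, with -0.38 on let7a native and -0.24 on miR-17 native.

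4 let-7a targets that were far below the control on let7a native were not so here. CDC34, a ubiquitin-conjugating enzyme, was at 10.88, within the 10.88 to 11.07 of the control, the miR-200c, the miR-21 and the miR-17 native arrays. It was at 9.66 on let7a native and at 9.67 on the array with the miR-17 methylated label. HMGA1, a relative of HMGA2, was at 12.42, the highest of the 9 arrays, against 11.17 on let7a native, 11.60 on the array with the miR-17 methylated label and 12.05 to 12.31 on the rest. E2F5, a repressor of the E2F family, was at 8.73, with 7.67 on let7a native, 7.89 on the array with the miR-17 methylated label, 8.20 on miR-17 native and 8.95 on the control. FAS, a death receptor, was at 8.99, with 7.65 on the array with the miR-17 methylated label, 8.32 on let7a native and 8.68 to 9.34 on the others. For CDC34 the difference from the control was -0.06 on the index array, -1.28 on let7a native and -1.27 on the array with the miR-17 methylated label. LIN28B was on the list but was not among its measured members.

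**Figure D3:**
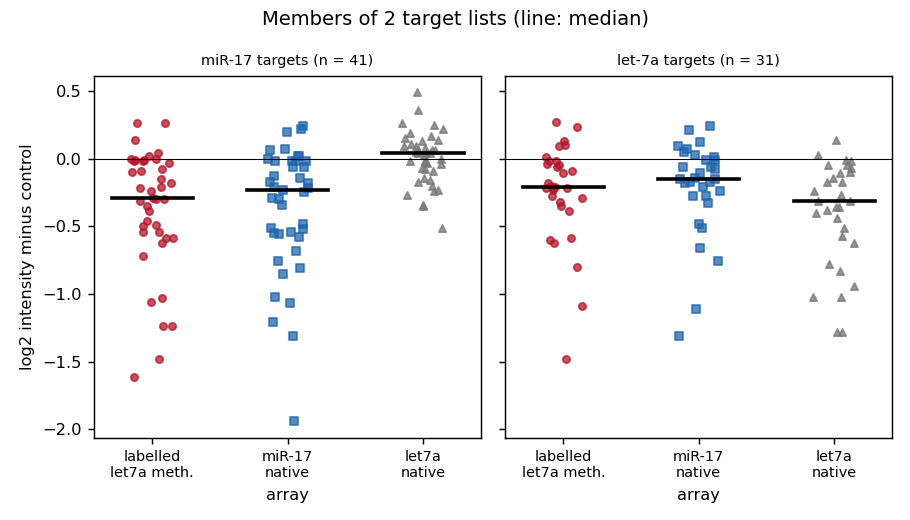
Each point is a member of the known miR-17 target list (left, 41 genes) or let-7a target list (right, 31 genes), as log2 intensity minus the negative control, on the index array, miR-17 native and let7a native (1 array each), with a line at the median. The miR-17 target medians are -0.29, -0.23 and 0.04, and the let-7a target medians -0.21, -0.15 and -0.31.

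Genes of DNA replication were higher. Of 39 S phase and DNA replication genes 38 were higher than the control and 1 lower, where 47.9% of all features were lower, with a median of 0.36. By at least 0.5, 10 were higher (2.0% of all features) and 1 lower (3.03%), and by at least 1, 1 was higher (0.162%). On miR-17 native 36 were higher, with a median of 0.30, and on let7a native 21 were higher and 18 lower, with a median of 0.01. Set directly against let7a native, 36 of the 39 were higher, with a median of 0.34, and against miR-17 native the median was 0.07. RPA1, a subunit of the protein that coats single-stranded DNA, was at 9.66 on this array and on miR-17 native, against 8.61 on the control and 8.69 on let7a native, and miR-200c methylated and the array with the miR-17 methylated label were as bright, at 9.76 and 9.51. TYMS, which makes thymidylate, was at 10.82, the highest of the 9, with 9.96 on the control, 10.71 on miR-17 native and 10.40 on let7a native, and its second probe gave 0.86 where the first gave 0.85. POLA1, the catalytic subunit of the polymerase that starts each strand, was at 7.51 and 7.35 on miR-17 native, against 6.70 to 6.98 on the other 7. The helicase subunits MCM2 to MCM7 lay between 0.11 (MCM3) and 0.59 (MCM4) above the control, and on let7a native between -0.31 (MCM3) and 0.10 (MCM5 and MCM6). The sliding clamp PCNA was at 0.43, with -0.14 on let7a native and 0.41 on miR-17 native. The 1 lower member was RRM2, whose probes disagreed.

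E2F factors are known to drive replication genes through sites near the start, so the promoters of these genes were searched. The motif was any of TTTCCCGC, TTTGGCGC, TTTCGCGC and TTTGCCGC on either strand, in the 250 bases before the start in RefSeq (GRCh38.p14). Matches on opposite strands can overlap, as they do in MCM6. A match was found in 12 of 34 S phase promoters (35.3%), 6 of 22 promoters of G1 cyclin and E2F genes (27.3%), 2 of 33 mitosis promoters (6.06%) and 451 of 10444 promoters of all features detected on both arrays (4.32%). It was found in 761 of 27305 promoters in the table (2.79%). Among the other lists it was found in 3 of 18 interferon (16.7%), 3 of 19 p53 target (15.8%), 3 of 25 let-7a target (12%) and 4 of 36 miR-17 target promoters (11.1%), and in at most 7.14% of each remaining list. A match describes these letters and does not show binding. TYMS (chr18:657403-657652, + strand) and POLA1 (chrX:24693668-24693917, + strand) are shown as the members with a match that were highest above the control, and capitals mark the match, 39 and 137 bases before the start.
TYMS: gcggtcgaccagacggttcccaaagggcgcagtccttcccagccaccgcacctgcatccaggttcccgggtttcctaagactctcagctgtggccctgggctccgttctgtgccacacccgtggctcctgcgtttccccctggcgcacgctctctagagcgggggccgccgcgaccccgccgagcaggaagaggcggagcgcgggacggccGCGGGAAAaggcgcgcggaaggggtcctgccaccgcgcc
POLA1: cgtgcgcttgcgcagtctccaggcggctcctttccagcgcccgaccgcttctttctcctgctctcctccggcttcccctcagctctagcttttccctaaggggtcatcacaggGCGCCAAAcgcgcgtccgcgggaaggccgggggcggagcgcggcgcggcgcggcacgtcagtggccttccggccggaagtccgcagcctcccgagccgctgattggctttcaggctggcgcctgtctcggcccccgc

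Mitosis genes were higher as well, and the medians of the 3 arrays lay near each other. Of 38 members 35 were higher and 3 lower than the control, where 47.9% of all features were lower. The median was 0.28, against 0.24 on miR-17 native and 0.23 on let7a native. By at least 0.5, 9 were higher and 0 lower (2.0% and 3.03% of all features). Against the mean of all miR-200c and miR-21 arrays, native and methylated, the median on the index array was 0.47. Set directly against let7a native the median was 0.01 and against miR-17 native 0.02. Single members still differed. CCNA2, a cyclin of S phase and G2, was at 10.41 and on miR-17 native at 10.51, against 9.19 to 9.65 on the other 7, so let7a native (0.24 above the control) did not show its difference of 1.0. BUB1B and BUB1, kinases of the spindle checkpoint, were at 9.39 and 9.24, the highest of the 9 arrays, and miR-17 native came next at 9.09 and 9.03. The 3 lower members were KIF23 (-0.38), PRC1 (-0.17) and NUF2 (-0.08), which act in cell division at the midzone and kinetochore.

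The regulators of G1 were split. Of 29 G1 cyclin, inhibitor and E2F genes 15 were lower and 14 higher, with a median of -0.01, where 47.9% of all features were lower. By at least 1, 3 were lower and 0 higher (0.505% and 0.162% of all features). The 3 were CDKN1A, CCND1 and the inhibitor CDKN2B. CDKN2B was at 8.80, with 9.88 on the control, 8.96 on miR-17 native and 9.58 on let7a native, and was also low on the miR-200c arrays, at 9.04 and 8.87. CDKN1B, the p27 inhibitor, was the highest at 0.55, with 0.26 on miR-17 native and -0.14 on let7a native. CDK4 and CDK2 were at 0.42 and 0.44, and let7a native showed both, at 0.61 and 0.50.

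Targets of the transcription factor NF-kappaB were mostly lower than the control. Of 19 members 15 were lower and 4 higher, where 47.9% of all features were lower, and 7 were lower by at least 0.5 and 0 higher by as much (3.03% and 2.0% of all features). The median was -0.22, against -0.15 on both native arrays. It was -0.48 with subtraction of the blank mean or with the authors' values. Against the mean of all miR-200c and miR-21 arrays, native and methylated, it was -0.08. BIRC3 led the list. NFKBIA, the inhibitor that holds NF-kappaB in the cytoplasm, was at 9.58, with 10.59 on the control, 8.85 on let7a native and 9.78 on miR-17 native, and the miR-21 arrays were as low at 9.73 and 9.62. Its difference of -1.01 was thus exceeded on let7a native (-1.74). CXCL8, a neutrophil chemokine, was at 6.42, which is dim, and miR-17 native was at 6.38, while let7a native at 7.19 lay near the 7.4 of the control. The miR-200c arrays were about as low, at 6.56 and 6.69. ICAM1, an adhesion receptor, and IER3, an early response gene, differed by -0.71 and -0.70, with -0.71 and -0.86 on miR-17 native and -0.42 each on let7a native.

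Genes of the plasminogen system and the caveolae had the lowest median of the lists, -0.48 over 11 members. Of these, 8 were lower and 3 higher, where 47.9% of all features were lower. By at least 0.5, 4 were lower and 1 higher (3.03% and 2.0% of all features). By at least 1, 2 were lower and 0 higher (0.505% and 0.162%). The median was -0.20 on miR-17 native and -0.03 on let7a native. Against the mean of all miR-200c and miR-21 arrays, native and methylated, it was -0.05 on this array. With no filter on dim probes it was -0.12. PLAU led it. CAV1, the coat protein of caveolae, was at 8.04 and differed by -1.05, with -0.92 on let7a native and -1.15 on miR-17 native, but was as low on the miR-200c arrays and its second probe gave 0.08. CAV2 differed by -0.71 and the urokinase receptor PLAUR by -0.70, and miR-17 native showed both, at -0.91 and -0.56. Let7a native showed PLAUR (-0.39) and not CAV2 (-0.23). S100A10, a plasminogen receptor subunit, was higher, at 12.41 against 11.59, with 12.10 on miR-17 native and 11.95 on let7a native.

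**Figure D4:**
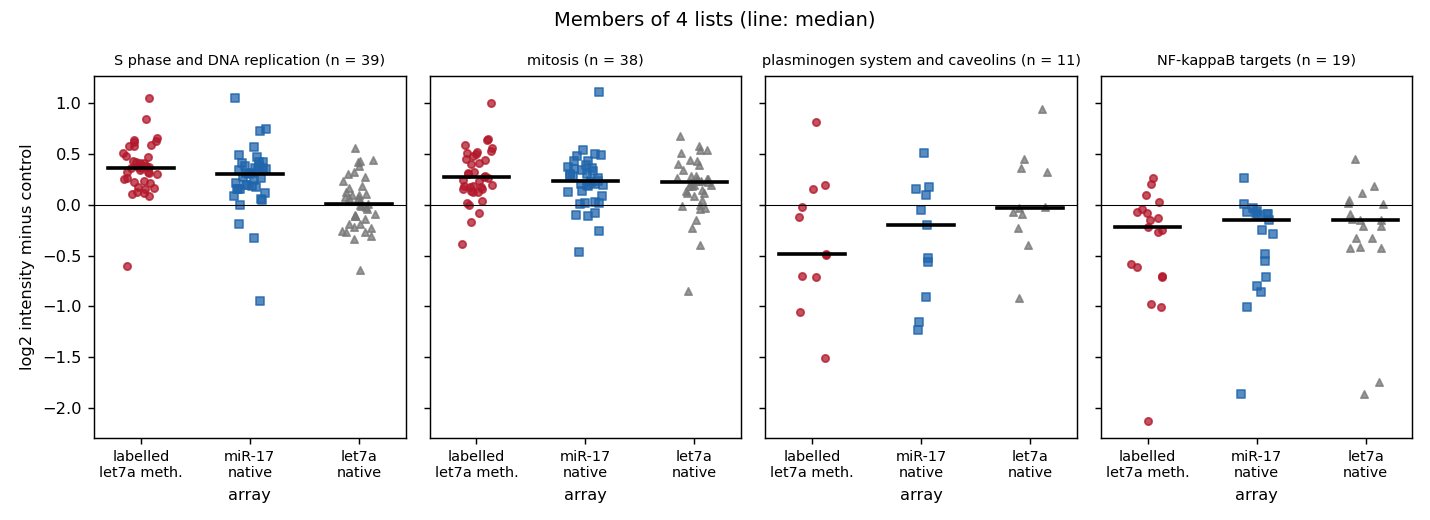
Each point is a list member's log2 intensity minus the negative control on the index array, miR-17 native and let7a native (1 array each), and lines are medians. Replication genes lie mostly above 0 on the first 2 arrays (medians 0.36 and 0.30) and around 0 on let7a native (0.01), while mitosis genes lie above 0 on all 3.

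Single members of the remaining lists stood out while most lists had medians near 0. In the TGF-beta and BMP pathway the helix-loop-helix inhibitors ID3 and ID1 differed by -1.35 and -1.25 while the list's median was 0.01. ID3 was at 9.98 and ID1 at 8.96, with 9.76 and 9.0 on miR-17 native, and let7a native, at 10.57 and 9.56, showed both at about 0.5 times the size (-0.75 and -0.65). Among 28 growth-factor feedback genes, EGR1, an early response factor, and HBEGF, a growth factor, were low on the same pair of arrays. EGR1 was at 7.33 and on miR-17 native at 7.34, against 8.08 to 8.95 elsewhere, and HBEGF at 6.75 and 6.98 against 7.85 to 8.28. ERRFI1, an inhibitor of the EGF receptor, was at 7.50, with 8.28 on the control, 7.05 on let7a native and 7.37 on miR-17 native, and both native arrays showed its difference of -0.77. Of 30 hypoxia and glycolysis genes 4 were lower by at least 0.5 (3.03% of all features), STC1, PFKP (-1.07), SLC2A3 (-0.80) and PFKFB3 (-0.54), and 0 were higher by as much (2.0%). PFKP and SLC2A3, a glycolytic enzyme and a glucose transporter, were at -1.24 and -1.01 on miR-17 native and -0.13 and -0.44 on let7a native.

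Among 19 NRF2 and antioxidant genes, GCLM, a subunit of the enzyme that starts glutathione synthesis, was at 8.12, the lowest of the 9 arrays, against 9.07 on the control, 8.67 on miR-17 native and 9.17 on let7a native. SRXN1, sulfiredoxin, differed by -0.77 by 1 probe and by 0.02 by another, and the factor NFE2L2 itself by -0.64, with -0.50 on miR-17 native and -0.21 on let7a native. In the autophagy and lysosome list, NBR1, a cargo receptor, differed by -0.85 where let7a native and miR-17 native were at 0.02 and -0.06, and BECN1, a starter of autophagy, by -0.51, shown by miR-17 native (-0.38). MSMO1 and MVK of sterol synthesis differed by -0.72 and -0.52 and CYP51A1 by 0.61, all shown by miR-17 native and none by let7a native, over a list whose median was 0.12. MSMO1 was lower still on the miR-200c arrays, at 9.13 and 9.04 against 9.77 here. In the ER stress and ATF4 list the chaperone DNAJB9 and the factor CEBPB differed by -0.91 and -0.86, and CRELD2 by 0.68, and both native arrays showed all 3. The interferon list had 15 members lower and 7 higher with a median of -0.07, where 47.9% of all features were lower. ISG20, an exonuclease on it, differed by -0.49 and on miR-17 native by -0.62, but by 0.95 on let7a native, while IFI6 was higher on all 3 (0.54, 0.61 and 1.22).

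p53 targets had 11 members lower and 13 higher, where 47.9% of all features were lower, and CDKN1A was the lowest. GDF15, a stress cytokine, was 0.70 higher, but its second probe gave 0.14 and it was near the background, and DDB2, a DNA repair factor, was 0.69 higher, with 0.90 on let7a native and 0.70 on miR-17 native. Epithelial markers had a median of -0.02, with the keratin KRT18 at -0.76 (-0.18 on miR-17 native, -0.02 on let7a native), CDX1 at -0.37, and EPCAM at 0.50 by 1 probe and -0.19 by another. Mesenchymal markers had a median of 0.00. VIM, an intermediate filament protein, was at 0.53 and shown by let7a native (0.45) and not miR-17 native (0.04), and the transcription factor ZEB1 was at -0.29, with ACTA2 at -0.18. YAP pathway genes had a median of 0.05, with the coactivator WWTR1 at -0.55 (-0.67 on miR-17 native and 0.22 on let7a native), F3 at -0.49 and CCN1 at -0.42. None of the 18 members of the BCL2 family differed by 0.5 or more, where 3.03% of all features were lower and 2.0% higher by as much. The widest were PMAIP1 at 0.46, BCL2A1 at -0.34 and BCL2L12 at -0.31. SMAD2 was the highest of the TGF-beta list at 0.38.

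The machinery that handles small RNAs and RNA methylation differed little, as did most features. Of 19 small RNA genes 1 was lower by at least 0.5 and 0 higher by as much (3.03% and 2.0% of all features). The 1 was AGO2, the Argonaute that cuts targets, at -0.69, with -0.81 on let7a native and -0.78 on miR-17 native. The control was the highest of the 9 arrays for AGO2. DGCR8 and XPO5, which process and export miRNA precursors, were each 0.41 higher, and XPO5 was at -0.36 on let7a native and 0.14 on miR-17 native. Of 22 RNA methylation genes none differed by 0.5, where 3.03% of all features were lower and 2.0% higher by as much. The widest were the eraser ALKBH5 at 0.45 and the writer subunits METTL3 and VIRMA at 0.34 and 0.33. Of 59 cytosolic ribosomal protein genes, RPL37 (-0.79) and RPL32 (-0.50) were lower and RPL22 (0.52) higher by at least 0.5. These counts were near the shares over all features (3.03% lower and 2.0% higher). Ribosomal protein genes have many processed copies in the genome, which the probes may not part. Heat shock genes had a median of 0.08, with the cochaperone BAG3 at 0.60 and the constitutive chaperone HSPA8 at -0.54.

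Markers of other cell types that were measured lay within 0.27 of the control for those named. Of 16 blood and immune markers 5 were measured, with a median of -0.10, CD68 at -0.27, CD79A at -0.18 and CD3E at 0.10. Of 13 fibroblast and endothelial markers 5 were measured, with a median of -0.03, CLDN5 at -0.13, KDR at -0.11 and DCN at 0.06. CD68 was bright on every array, 12.87 to 13.38, and marks lysosomes as well as macrophages.

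**Figure D5:**
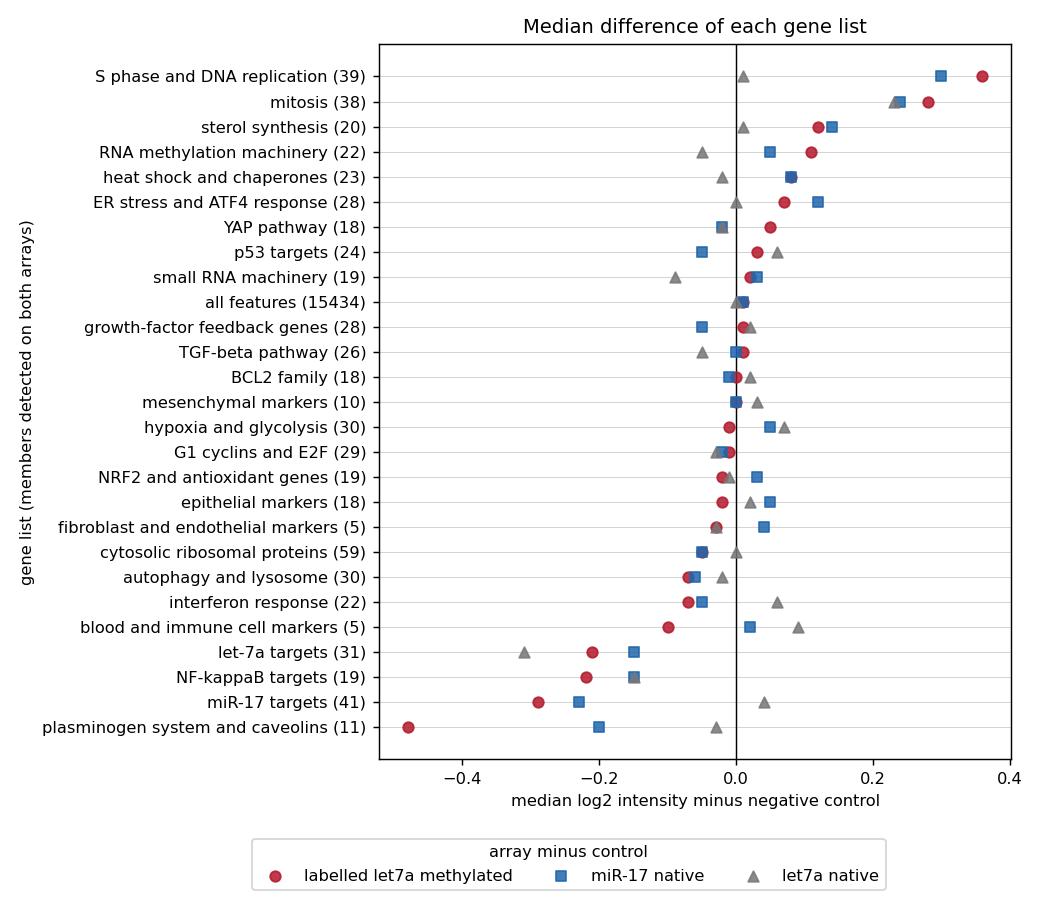
Points give the median log2 difference from the negative control of each gene list, with the number of members detected on both arrays in parentheses, on the index array (red), miR-17 native (blue) and let7a native (grey), 1 array each. S phase genes (0.36) are highest and the plasminogen and caveolin genes (-0.48) lowest on the index array, and all features have a median of 0.01.

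The index array was then set directly against each native array. Against let7a native 84 features were lower (0.531%) and 46 higher (0.291%) by at least 1. The lowest named genes were STC1 (-2.34), TOR4A (-2.11), PLAU (-1.97), PON2 and COMMD6 (-1.74 each) and TMEM30A (-1.66). TMEM30A, a partner of lipid-flipping ATPases, was at 8.24 and on miR-17 native at 8.42, against 8.94 to 9.90 on the others. The highest were CHORDC1 (2.53), FKBP15 (2.40), PDCD10 (2.18), ZYX (2.06), ABHD17C (2.05) and EIF2AK2 (1.91). All of these but PDCD10 lay in the corner of the array described next.

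Against miR-17 native 3 features were lower (0.0189%) and 16 higher (0.101%) by at least 1, and most of the higher ones lay together on the glass. Of the 16, 14 lay in blocks 1 and 2, columns 1 to 8 of the array, a corner that holds 102 of the 15873 features. Without that corner 2 were higher and 3 lower, and the SD of the difference was 0.148. The same corner held 9 of the 46 features higher than let7a native, and without it 37 were higher and 84 lower. Of the 25 higher and 78 lower than the control it held 0 and 1, the 1 being RNF149, whose second probe differed by -0.09 where the first gave -1.06. The corner was chosen after these values were seen. FKBP15, EIF2AK2, CHORDC1, ZYX, MXRA7 and RNF149 were the highest named genes, at 2.51, 2.05, 2.04, 1.82, 1.78 and 1.61. All of these but MXRA7 lay in the corner. MXRA7 was at 8.22 here, 6.44 on miR-17 native, 6.12 on miR-200c native and 8.31 to 8.6 on the others. FKBP15 was at 9.55 here, 7.05 on miR-17 native, 7.15 on let7a native and 8.07 to 10.03 on the others, and EIF2AK2, the interferon-induced RNA-dependent kinase, at 8.41, 6.36 and 6.50. The part of the place on the glass in these differences was not tested.

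The genes lower than on miR-17 native were TOR4A (-2.27), PRORP (-1.68), FBXO8 (-1.12), ARF1 (-0.97), IMPDH1 (-0.90) and SEC31A (-0.87). TOR4A varied over all the arrays, from 6.19 to 9.72, and PRORP was not detected on 2 of them. FBXO8, a ubiquitin ligase adaptor, was at 7.81 while the other 8 arrays lay between 8.73 and 9.22. SEC31A, a vesicle coat protein, was at 8.09 against 8.67 to 9.10.

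Few genes set this array apart from the control and both native arrays at once. Of 12885 named genes detected on all 4, 21 were lower than on each of the other 3 by at least 0.5 and 3 were higher, and by at least 1 the counts were 2 and 0. The 2 were TOR4A and FBXO8. Next lowest were NBR1, BRI3BP and SEC31A, at 7.34 for NBR1 against 8.13 to 8.20 and at 6.27 for BRI3BP against 7.03 to 7.28 on the 3 other arrays. NBR1 was near that level on miR-200c native too, at 7.46. The highest were HSPA1B, CHORDC1, CCL17, MCM2 and PCLAF. Of the 3 counted as higher, CHORDC1 and CCL17 lay in the corner of blocks 1 and 2, columns 1 to 8, and HSPA1B beside it, in block 1, column 9. HSPA1B, a stress-induced chaperone with a near-identical copy that its probe may not part, was at 12.46 against 11.47 on the control, 11.35 on let7a native and 11.86 on miR-17 native. PCLAF, a partner of PCNA, was at 12.35, with 11.60 on the control, 11.42 on let7a native and 11.88 on miR-17 native, and was lowest on the miR-200c arrays, at 9.93 and 10.22. MCM2 was at 10.89 against 10.14 to 10.48 on the other 8.

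Some features were above background on only 1 of the 2 arrays, so only a bound can be given. There were 340 detected on the index array alone and 66 on the control alone. The blank level was higher on the control. TBL2 was at least 2.04-fold higher than on the control, and was detected on miR-17 native at 6.89 and on let7a native at 6.05, where this array had 6.96. MAGOHB was at least 1.17-fold and MERTK at least 1.12-fold higher. OSCP1 was at least 1.61-fold, ARHGEF39 at least 1.48-fold and ZBTB14 at least 1.43-fold lower, and all 3 were detected on both native arrays.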

How the data were processed

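RNA of 9 samples was hybridised to one-colour 3D-Gene arrays read at 635 nm (Cy5). The deposited scanner files hold a raw intensity per spot, per the file headers the median over a spot's pixels without background subtraction. A second deposited table, of the authors' processed values, gives each probe a linear intensity whose making the labels do not describe. Each of its columns followed the spot intensities of the same array with the background near the blank mean and a median of 25, and it was used as an alternative.

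Spots were background corrected with limma normexp (limma 3.58.1 in R 4.3.3, offset 50), which compresses the differences of dim probes. Control spots and 19 probes with a mark other than OK were left out, and the arrays were quantile normalized and put on a log2 scale. A probe was detected where it exceeded, on its array, the average of 2680 blank spots by 2 SD. Probes detected on at least 5 of 9 arrays were kept (17679), and each gene was represented by its brightest probe on average. Of 24460 probes 20236 had 1 gene symbol and 4224 none or several. Symbols were current for 17238, updated for 2899 and kept for 99. Precision is limited by the single array in each group. The steps were tested on simulated data.

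The genes and lists were chosen with earlier results of these data known. Named genes were the 12 lowest and 12 highest, 5 lowest and 3 highest of both target lists with fixed members, 3 of every other list, 6 in each direction against each native array, 5 in each direction against all 3, and 3 bounds in each direction. Other members were named from their lists after their values were seen. The alternatives run were median scaling, subtraction of the blank mean (floor 1), offset 16, the authors' values, other probe filters and the mean of all probes of a gene. A further alternative took the mean of all miR-200c and miR-21 arrays, native and methylated, as baseline.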

Additional observations from a re-analysis of the deposited data

How the results depend on the processing

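The counts of features past a given size moved most with the background correction. With subtraction of the blank mean 194 features were lower and 74 higher by at least 1, and 1090 and 867 by at least 0.5. With the authors' processed values these counts were 187, 76, 1088 and 903, and with offset 16 there were 490 higher by at least 0.5. Against the mean of all miR-200c and miR-21 arrays, native and methylated, the median was -0.04 for let-7a targets and -0.09 for miR-17 targets. POP5 (-0.08) and SNU13 (-0.12) turned direction. On that baseline 115 of 128 named genes kept their sign, and of 43 past 1 on the log2 scale 19 were still past it. Leaving out the corner, an alternative chosen after seeing the data, 123 of 123 named genes with a value kept their sign. With probes detected on all 9 arrays 128 of 128 did, and under each of the 6 remaining settings at least 126 of 130. The share of features lower by at least 1 that miR-17 native showed was 94.9% and ranged from 88.2% to 96.1%, and that of let7a native was 15.4%, from 12.5% to 21.1%. No paired analysis was possible because each group has 1 array. Without a second array, the spread between cultures, transfections and hybridisations is unknown, and levels near background give differences that are too small.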
